A study of Mus musculus with 8 samples.

Results

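Imprinted genes were followed through mouse embryonic stem (ES) cells that lack the TCF/LEF transcription factors or regained 1 of them. The members are 38 genes of known imprinted loci, found in the count tables by the symbols paired with Ensembl IDs in the authors' deposited table, out of 47729 genes listed. They lie on 10 chromosomes, in 9 clusters of 2 or more members and 8 loci with 1 member each. The copy known as the active one is the paternal copy for 22 members and the maternal copy for 15. The remaining one, Gnas, gives transcripts from both parental copies in a tissue-dependent way. These parental labels describe the loci in general, and which copy is read in these cells was not measured. A total of 35 members passed the filter on low counts, out of 16515 genes tested.

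All 8 libraries came from the E14TG2a line of strain 129/Ola, grown for 48 h in medium with 15% serum and LIF, the cytokine that holds ES cells undifferentiated. QT7 and QT7L1 are QKO cells in which 1 copy of TCF7 (QT7) or of TCF7L1 (QT7L1) was restored, going by the sample titles. QKO cells carry TCF7(-/-), TCF7L1(-/-), TCF7L2(-/-) and LEF1(-/-), and WT cells are the unedited line. The genotype tags of QT7 give TCF7L1(+/-) and those of QT7L1 give TCF7(+/-), the opposite of the titles, with the other 3 genes -/-. The titles were used here. In CPM, counts scaled to library size, Tcf7 had 16.6 and 20.9 CPM in QT7, 10.1 and 12.7 CPM in QT7L1, 7.98 and 19.7 CPM in QKO and 59.6 and 61.9 CPM in WT. Tcf7l1 had 27.4 and 22.5 CPM in QT7, 37.0 and 27.5 CPM in QT7L1, 38.3 and 39.1 CPM in QKO and 73.6 and 68.8 CPM in WT, and fell in QT7 against QKO (log2 -0.64 ± 0.15, adjusted p = 0.0137 by edgeR). Tcf7 was thus higher and Tcf7l1 lower in both QT7 libraries than in both QT7L1 libraries, the direction of the titles, but neither passed the threshold in QT7 against QT7L1 (adjusted p = 0.509 and 0.420 by edgeR). Each group has 2 libraries, described as clones for the 3 edited groups and as biological replicates for WT, so a difference within an edited group is also a difference between clones.

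Genomic imprinting silences 1 parental copy of a gene, so that only the copy from the mother or only the copy from the father is read. The silent and active copies are told apart by DNA methylation set in the germ line at imprinting control regions, which ZFP57, its partner TRIM28 and the maintenance methyltransferase DNMT1 then preserve through cell division. Clusters usually pair protein-coding genes with a long noncoding RNA from the opposite parental copy, and many of the proteins act on growth, placenta or brain. In cultured ES cells, imprints are known to vary between lines and clones. The deposited counts hold no allele information, so a level here is the sum of both parental copies. In bulk RNA, fewer cells with a transcript and less of it per cell cannot be told apart.

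Library totals ranged between 31573536 and 43362627 counts. ES cell markers summed to between 5217 and 6467 CPM in the 8 libraries. In a principal component analysis QT7 replicate 1 stood apart on component 2, at -59.6, while QT7 replicate 2 lay at -18.9 and the other libraries between -1.07 and 42.2. Markers of fibroblasts, the usual feeder cells, summed to 106 and 156 CPM in QT7, 113 and 132 CPM in QT7L1, 238 and 94.3 CPM in QKO and 177 and 146 CPM in WT. Of these 15 fibroblast markers, 14 were detected in some library and Lum had no count in any. Single markers spread unlike the sum. Fbln1, a large part of it, lay between 41.5 and 65.2 CPM. The collagen gene Col1a2 had 0.102 and 9.80 CPM in QT7, 0.242 and 5.63 CPM in QT7L1, 34.5 and 3.91 CPM in QKO and 25.6 and 11.8 CPM in WT. Markers of primitive and visceral endoderm summed to 73.6 and 43.3 CPM in QT7, 45 and 35.8 CPM in QT7L1, 32.8 and 47.7 CPM in QKO and 39.0 and 100.2 CPM in WT. Trophoblast markers summed to between 26.3 and 54.2 CPM, mesoderm markers to between 2.53 and 12.6 CPM and neural markers to between 86.9 and 187 CPM. The part of these markers in the results was not tested.

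Short stretches of the RefSeq promoter windows (build GRCm38.p6, 250 bases before to 50 bases after a start) show the sequence contexts that the study's factors and the imprint-keeping machinery are known to recognise. Windows were present for 29 of the 38 members, 44 windows in all. The TCF/LEF core, CTTTGA on either strand, occurred in 4 of the 44 windows (9.1%), against 16.0% of all 32851 windows, in the windows of Dio3, Igf2, Meg3 and Slc22a3. The ZFP57 core, TGCCGC on either strand, occurred in 11 of the 44 windows (25.0%), against 11.6% of all windows. This core contains a CpG, and the member windows held a median of 14.5 CpG dinucleotides, against 7.0 in all windows. The 11 include a pair of Mest windows that overlap almost wholly and share their matches. A match is a run of letters and not a bound site. The stretches are written 5′ to 3′ along the gene's own strand, with the motif in capitals. They are shown for Dio3, the member with the largest called rise in QKO against WT, and for some other members described below, called or not. Not every match is printed.
Dio3, TCF/LEF core, chr12:110279182-110279207, + strand: ccaattcaagCTTTGActataaattg
Igf2, TCF/LEF core, chr7:142667008-142667033, - strand: tccccatttgTCAAAGtgtgtgacag
Meg3, TCF/LEF core, chr12:109540934-109540959, + strand: tgcgctgacgTCAAAGaccacccctt
Mest, ZFP57 core, chr6:30737973-30737998, + strand: gaggggcgctGCGGCAggatgggcgg
Mcts2, ZFP57 core, chr2:152686898-152686916, + strand: gccTGCCGCagcttggcgc
Snrpn, ZFP57 core, chr7:60005186-60005211, - strand: cccctgcattGCGGCAaaaatgtgcg
Zdbf2, ZFP57 core, chr1:63200212-63200237, + strand: tttgcggcttTGCCGCcttcacagat
Plagl1, ZFP57 core, chr10:13090732-13090757, + strand: ggcgtgttgcGCGGCAaagcccacgg
Peg3 and Usp29 are read in opposite directions from starts separated by 146 bases, which hold 5 CpG dinucleotides (in capitals), the positions that carry DNA methylation. This stretch lies outside both genes and is shown because Peg3 fell in QKO.
Peg3 to Usp29 interval, chr7:6730432-6730577, + strand: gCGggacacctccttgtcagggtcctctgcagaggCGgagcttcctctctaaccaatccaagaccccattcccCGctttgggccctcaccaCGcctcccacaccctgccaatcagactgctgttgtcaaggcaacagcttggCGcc

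In QKO against WT, 7 of the 35 tested members changed (edgeR quasi-likelihood test, Benjamini-Hochberg adjusted p under 0.05 over all genes tested). Dio3, Mest and Mcts2 rose, 3 members where 11.7% of all tested genes rose, and Sgce, Peg3, Igf2r and Gnas fell, 4 members where 14.7% of all tested genes fell. The median log2 fold change of the members was -0.28, against -0.005 for all genes tested. Of the 20 tested members labelled paternal 3 rose and 2 fell, and of the 14 labelled maternal 1 fell. These shares lie near the background, so as a group the imprinted genes were not called more often than other genes, and individual genes are described by cluster. The authors' deposited table called 3 members higher and 6 lower in the same comparison. Without QT7 replicate 1 or 2 the number of members called was 14 or 13, with 5497 or 5469 genes called in all, and without WT replicate 2 or QKO replicate 1 it was 3 or 4, with 1287 or 2125.

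In QT7 against QKO, Sgce and Igf2r rose, with 14.8% of all tested genes called higher, and Mest, Zdbf2 and H13 fell, with 12.1% called lower. QT7L1 against QKO gave 5 members higher (Kcnq1, Kcnq1ot1, Sgce, Igf2r and Gnas), beside 15.9% of all genes, and 5 lower (Dio3, Peg10, Mest, Nnat and H13), beside 13.9%. Members had a median log2 fold change of -0.16 in QT7 against QKO and -0.05 in QT7L1 against QKO, where all genes had 0.04 and 0.02. These comparisons share the QKO libraries with each other and with QKO against WT. The authors' deposited tables called 2 members higher and 5 lower in QT7 against QKO. For QT7L1 against QKO they called 3 higher and 6 lower. There 0 paternal members were higher, so Sgce and Kcnq1ot1, higher by edgeR, were not called higher in them. The 5 members called in QT7 against QKO became 3 without QKO replicate 2 and 8 without QT7 replicate 2. The 10 in QT7L1 against QKO became 4 or 3 without QKO replicate 1 or 2, 6 or 3 without QT7L1 replicate 1 or 2, and 18 or 17 without QT7 replicate 1 or 2, the last with 5971 or 5960 genes called in all.

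Against WT directly, QT7 had 1 member higher (Dio3), beside 2.37% of all genes, and 5 lower (Phlda2, Peg10, Peg3, Magel2 and Gnas), beside 2.25%. The median log2 fold change of the members was -0.20 there, against 0.008 for all genes, and in QT7L1 against WT it was -0.22, against 0.004. Peg10 alone was called in QT7L1 against WT, lower, beside 0.448% of all genes lower and 0.297% higher. In QT7 against QT7L1 the edgeR test called none of the 35 members, 9 of which had an unadjusted p under 0.05, and DESeq2 called 2. There 0% of all genes were called higher and 0.00606% lower. The authors' deposited tables called 1 member higher and 6 lower in QT7 against WT. They called 0 higher and 4 lower in QT7L1 against WT, and 1 higher and 1 lower in QT7 against QT7L1. Without QT7 replicate 2, 10 members were called in QT7 against QT7L1, with 1564 genes called in all. The 6 members in QT7 against WT became 0 or 1 without WT replicate 1 or 2, 2 without either QKO library and 1 without QT7 replicate 1 or either QT7L1 library. The 1 in QT7L1 against WT became 0 without any 1 library of WT or QT7L1 and 4 without either QT7 library.

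**Figure D1:**
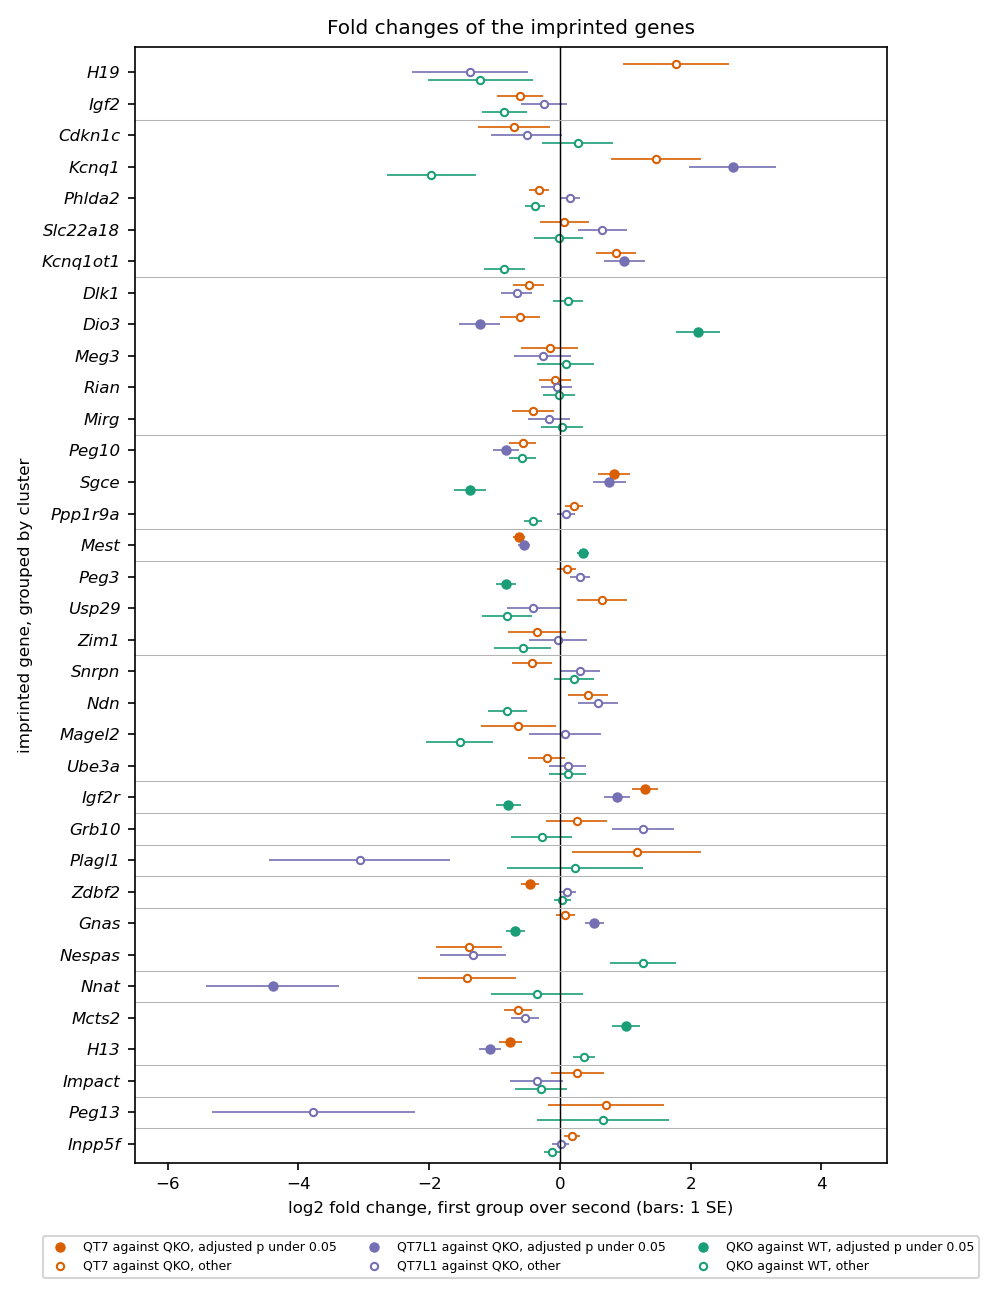
Log2 fold change (x axis, first group over second, bars 1 SE) of the 35 tested imprinted genes, grouped by cluster, in QT7 against QKO, QT7L1 against QKO and QKO against WT; filled points have an adjusted p under 0.05. Dio3, at 2.11 in QKO against WT, lies farthest right of the filled QKO points, and Nnat, at -4.39 in QT7L1 against QKO, farthest left of all.

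The Dlk1-Dio3 cluster on chromosome 12 carries protein genes read from the paternal copy and noncoding RNAs read from the maternal copy. Dio3, the deiodinase that inactivates thyroid hormones, had 2.09 and 2.37 CPM in QT7, 1.51 and 1.40 CPM in QT7L1, 3.51 and 3.33 CPM in QKO and 1.03 and 0.567 CPM in WT. The 4 groups did not overlap, with QKO highest and WT lowest. Its level in QKO was 4.33-fold that in WT (log2 2.11 ± 0.33 SE, adjusted p = 0.00247, n = 2 per group by edgeR), and this call held in each of the 14 alternatives run. QT7L1 was below QKO (log2 -1.23 ± 0.32, adjusted p = 0.0165 by edgeR), a call that ended when either QKO or either QT7L1 library was left out, with adjusted p between 0.0738 and 0.112. QT7 did not differ from QKO past the threshold (log2 -0.61 ± 0.31, adjusted p = 0.161 by edgeR) and was above WT (log2 1.5 ± 0.33, adjusted p = 0.0354). The last call ended in 8 of 14 alternatives, among them leaving out either library of QKO, WT or QT7L1 or QT7 replicate 1, with adjusted p of 0.0517 to 0.168.

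No other tested gene of the cluster was called in any comparison. Rian, a host RNA of small nucleolar RNAs and the most abundant member of the cluster, had 218 and 143 CPM in QT7, 195 and 172 CPM in QT7L1, 166 and 214 CPM in QKO and 226 and 157 CPM in WT. All 4 groups overlapped for Rian, and its log2 fold change was -0.01 ± 0.24 in QKO against WT (adjusted p = 0.977 by edgeR). Meg3, the long noncoding RNA at the head of the same transcribed stretch, ranged between 78.6 and 150.1 CPM, and Mirg, a microRNA host, between 9.04 and 18.2 CPM. Within each group Meg3, Rian and Mirg were higher in the same library: replicate 1 in QT7, QT7L1 and WT and replicate 2 in QKO. For Meg3 the log2 ratio of replicate 2 over 1 was -0.78 in QT7, -0.52 in QT7L1, 0.64 in QKO and -0.93 in WT. Dlk1, a Delta-family ligand, ranged between 2.73 and 5.24 CPM with no call. Like Dio3 it was lower in both rescued groups than in both QKO libraries. Its log2 fold change was -0.48 in QT7 (adjusted p = 0.154) and -0.66 in QT7L1 (adjusted p = 0.0587), each against QKO by edgeR. The Dlk1 levels of QKO and WT overlapped. Rtl1, a retrotransposon-derived placental gene whose RNA lies opposite a maternally read transcript, was too low to be tested. It had 6 and 11 counts in QKO and 1 to 3 in each library of the other groups, so it too was highest in QKO.

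On chromosome 6, Peg10 and Sgce are read in opposite directions from neighbouring starts. Peg10, a retrotransposon-derived gene needed for placenta, had 289 and 291 CPM in QT7, 229 and 257 CPM in QT7L1, 319 and 540.0 CPM in QKO and 653 and 626 CPM in WT. WT was above every edited library, and the QKO libraries stood apart from each other. It was lower in QT7 than in WT (log2 -1.14 ± 0.20, adjusted p = 0.0253) and lower in QT7L1 than in WT (log2 -1.40 ± 0.21, adjusted p = 0.0303, both edgeR, n = 2 per group). Leaving out either WT library ended both calls, with adjusted p of up to 0.179 for QT7 and, with a QT7L1 library left out, 0.271 for QT7L1. For QT7 the call also ended without either QT7 or either QT7L1 library, and for QT7L1 without either QT7L1 library. QT7L1 was also below QKO (log2 -0.83 ± 0.20, adjusted p = 0.0184), a call that ended without QKO replicate 2, without either QT7L1 library or with only these 2 groups fitted, with adjusted p of 0.0628 to 0.113.

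Sgce, the epsilon-sarcoglycan of muscle and brain membranes, had 4.06 and 5.70 CPM in QT7, 4.27 and 4.99 CPM in QT7L1, 2.76 and 2.72 CPM in QKO and 6.64 and 7.64 CPM in WT. QKO was lowest and WT highest, with the QT7 and QT7L1 libraries overlapping between them. QKO had 0.384 of the WT level (log2 -1.38 ± 0.25, adjusted p = 0.00406 by edgeR), and the call held in all 14 alternatives. It rose in QT7 against QKO (log2 0.83 ± 0.25, adjusted p = 0.0298) and in QT7L1 against QKO (log2 0.76 ± 0.25, adjusted p = 0.0416). Both of these ended when either QKO library was left out, with adjusted p of up to 0.146 for QT7 and 0.170 for QT7L1. The QT7 call also ended without QT7 replicate 2 and with only the 2 groups fitted, and the QT7L1 call without either library of QT7L1 or WT, with adjusted p of up to 0.197 (without QT7L1 replicate 2). Ppp1r9a, an actin-binding protein of the same cluster, lay between 45.7 and 66.6 CPM and was not called.

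Mest, a paternally read gene named for its expression in mesoderm, was the steadiest of the called members between replicates. It had 94.3 and 99.9 CPM in QT7, 99.6 and 106 CPM in QT7L1, 149 and 150.3 CPM in QKO and 116 and 118 CPM in WT. QKO lay above WT and WT above both rescued groups, without overlap. The QT7 level was 0.648 of that in QKO (log2 -0.62 ± 0.09, adjusted p = 0.00173) and the QT7L1 level 0.685 of it (log2 -0.55 ± 0.09, adjusted p = 0.00246), by edgeR, and both held in all 15 alternatives. The smaller rise in QKO against WT (log2 0.35 ± 0.09, adjusted p = 0.0175 by edgeR) ended when any 1 library of QKO or WT was left out, with adjusted p of 0.0766 to 0.105.

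**Figure D2:**
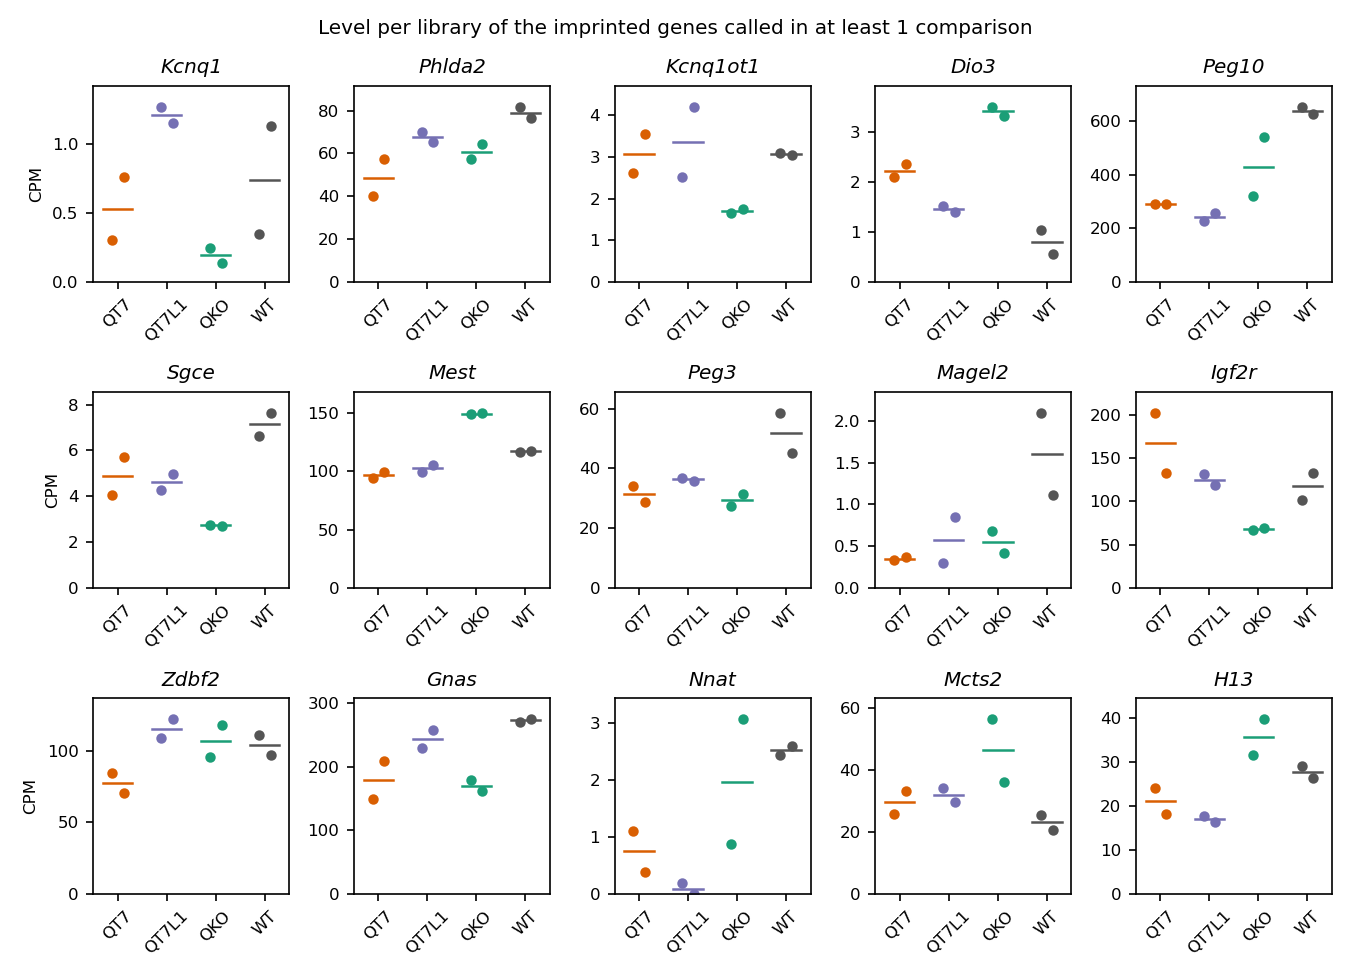
CPM (y axis, from 0) in each library of the 15 imprinted genes called in at least 1 of the 6 comparisons; points are libraries, bars the mean of the 2, and groups run QT7, QT7L1, QKO, WT. Mest and Dio3 are highest in both QKO libraries, at 149 and 150.3 CPM and at 3.51 and 3.33 CPM, and Sgce and Igf2r are lowest there.

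Peg3, a paternally read zinc-finger gene, had 34.2 and 28.9 CPM in QT7, 36.9 and 35.6 CPM in QT7L1, 27.3 and 31.4 CPM in QKO and 58.5 and 45.3 CPM in WT. All 6 edited libraries lay below both WT libraries. It fell in QKO against WT to 0.566 of the WT level (log2 -0.82 ± 0.15, adjusted p = 0.00471 by edgeR), which held in all 14 alternatives. The fall in QT7 against WT (log2 -0.72 ± 0.15, adjusted p = 0.0306 by edgeR) ended without WT replicate 1, without either QT7L1 library and with only the 2 groups fitted, with adjusted p of 0.0606 to 0.226. Usp29, the divergent neighbour whose start lies across the printed interval, ranged between 0.731 and 2.04 CPM, and Zim1, the maternally read zinc-finger gene beside them, between 0.736 and 2.22 CPM. Neither was called in any comparison.

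Igf2r encodes the receptor that carries IGF2 to lysosomes and so removes this growth factor. Its level was 202 and 133 CPM in QT7, 131 and 118 CPM in QT7L1, 67.3 and 68.6 CPM in QKO and 101 and 133 CPM in WT. Both QKO libraries lay below the other 6, which overlapped across groups. Within each group the library higher in Igf2r was also the one higher in summed endoderm markers. In QKO the 2 libraries differed little in Igf2r (67.3 and 68.6 CPM). The endoderm markers summed to 73.6 and 43.3 CPM in QT7, 45 and 35.8 CPM in QT7L1, 32.8 and 47.7 CPM in QKO and 39.0 and 100.2 CPM in WT. The part of these markers in the Igf2r values was not tested. QT7 had 2.46-fold the QKO level (log2 1.30 ± 0.20, adjusted p = 0.00273 by edgeR), a call that held in all 15 alternatives. QT7L1 had 1.83-fold the QKO level (log2 0.88 ± 0.20, adjusted p = 0.0116), and this ended without either QKO library or without QT7L1 replicate 1, with adjusted p of 0.0657 to 0.0772. QKO had 0.580 of the WT level (log2 -0.79 ± 0.20, adjusted p = 0.0199), and this ended without either QKO library or without WT replicate 2, with adjusted p of 0.0984 to 0.142. Airn, the antisense RNA that silences Igf2r on the paternal copy in other tissues, had 0 to 2 counts per library. Slc22a3, a cation transporter of the cluster, had 1 count in 1 QKO library and none elsewhere. Neither gene allows a fold. The counting's use of strand is not given in the sources used here, so how reads were assigned where Airn and Igf2r overlap is not known.

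IGF2 itself, the paternally read growth factor, had 8.29 and 10.5 CPM in QT7, 16.3 and 7.92 CPM in QT7L1, 18.2 and 10.5 CPM in QKO and 27.3 and 24.4 CPM in WT for its gene Igf2. Both WT libraries lay above the 6 edited ones. No comparison passed the threshold, and QT7 against WT came nearest (log2 -1.46 ± 0.35, adjusted p = 0.0574 by edgeR). H19, the noncoding RNA read from the maternal copy of the same cluster, ranged between 0.787 and 16.5 CPM. It was highest in QT7 replicate 1 at 16.5 CPM, while QT7 replicate 2 had 3.08 CPM. QT7L1 had 0.787 and 1.40 CPM, QKO 3.91 and 1.802 CPM and WT 8.295 and 5.01 CPM. In QT7 against QT7L1 its log2 fold change was 3.15 ± 0.88, with an adjusted p of 0.314 by edgeR.

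The Kcnq1 cluster on chromosome 7 holds Cdkn1c, Phlda2, Slc22a18 and Kcnq1, read from the maternal copy, and Kcnq1ot1, the antisense RNA that silences them on the paternal one. Kcnq1, a potassium channel, was low, with 0.306 and 0.759 CPM in QT7, 1.27 and 1.16 CPM in QT7L1, 0.248 and 0.139 CPM in QKO and 0.344 and 1.13 CPM in WT. These levels correspond to 8 and 5 counts in QKO and 42 and 38 in QT7L1. Kcnq1ot1 had 2.60 and 3.54 CPM in QT7, 2.51 and 4.20 CPM in QT7L1, 1.65 and 1.75 CPM in QKO and 3.10 and 3.04 CPM in WT, lowest in both QKO libraries. In QT7L1 against QKO, Kcnq1 rose (log2 2.64 ± 0.67, adjusted p = 0.0155) and so did Kcnq1ot1 (log2 0.98 ± 0.31, adjusted p = 0.0376), both by edgeR. Kcnq1ot1 lies within Kcnq1 on the opposite strand, so the 2 rises cannot be told apart where the genes overlap. The Kcnq1 call ended without any 1 library of QKO or QT7L1 (adjusted p of 0.0534 to 0.123). The Kcnq1ot1 call ended without either library of QKO or WT or without QT7L1 replicate 2 (adjusted p of 0.0537 to 0.302).

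Phlda2, which restrains placental growth, had 40.1 and 57.3 CPM in QT7, 70.1 and 65.4 CPM in QT7L1, 57.3 and 64.4 CPM in QKO and 81.7 and 76.4 CPM in WT. QT7 was below WT (log2 -0.70 ± 0.15, adjusted p = 0.0359 by edgeR), a call that ended in 8 of 14 alternatives: without any 1 library of WT, QKO or QT7L1, without QT7 replicate 1 and with only the 2 groups fitted, with adjusted p of 0.0535 to 0.212. Cdkn1c, the cell-cycle inhibitor p57 and the most abundant member of the cluster, had 36.7 and 124 CPM in QT7, 78.7 and 105 CPM in QT7L1, 123 and 138 CPM in QKO and 104 and 112 CPM in WT. QT7 replicate 1 was the lowest of the 8, and no comparison was called. Slc22a18 ranged between 2.91 and 7.98 CPM with no call, again lowest in QT7 replicate 1.

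The Gnas locus on chromosome 2 encodes the stimulatory G protein alpha subunit and other products from several starts. Gnas had 149.6 and 209.5 CPM in QT7, 229 and 258 CPM in QT7L1, 178 and 161 CPM in QKO and 270.1 and 275 CPM in WT. Both WT libraries lay above the other 6. Its level fell in QKO against WT (log2 -0.68 ± 0.15, adjusted p = 0.00924) and in QT7 against WT (log2 -0.60 ± 0.15, adjusted p = 0.0478), and rose in QT7L1 against QKO (log2 0.52 ± 0.15, adjusted p = 0.0239, all by edgeR). The QKO call against WT ended without WT replicate 2 or QKO replicate 2 (adjusted p of 0.0629 and 0.0797). The QT7 call ended in 8 of 14 alternatives, all but 1 of them leaving out 1 library of WT, QKO or QT7L1 or QT7 replicate 1 (adjusted p of 0.0708 to 0.222). The QT7L1 call ended without any 1 library of QKO or QT7L1 (adjusted p of 0.0593 to 0.150). Nespas, the antisense RNA of the locus, ranged between 0.460 and 2.74 CPM and was not called, with the same limit on overlapping reads.

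Also on chromosome 2, Mcts2 is a retrogene inside an intron of H13, on the same strand, and the imprinted start of Mcts2 is known to set where H13 transcripts end. Mcts2 had 25.9 and 33.2 CPM in QT7, 34.2 and 29.5 CPM in QT7L1, 56.4 and 36.2 CPM in QKO and 25.4 and 20.6 CPM in WT. H13, the signal peptide peptidase gene, had 24.2 and 18.1 CPM in QT7, 17.7 and 16.4 CPM in QT7L1, 31.7 and 39.9 CPM in QKO and 29.1 and 26.4 CPM in WT. Both genes were highest in the QKO libraries. Mcts2 rose in QKO against WT (2.01-fold, log2 1.01 ± 0.22, adjusted p = 0.0107 by edgeR), ending without WT replicate 2 or QKO replicate 1 (adjusted p of 0.0982 and 0.0701). H13 fell in QT7L1 against QKO (log2 -1.07 ± 0.17, adjusted p = 0.00219, held in all 15 alternatives) and in QT7 against QKO (log2 -0.76 ± 0.17, adjusted p = 0.0100, ending without QKO replicate 2 at 0.0999). Unspliced H13 RNA across the retrogene would be counted as Mcts2, and its part in these values was not tested.

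Nnat, a membrane proteolipid of neural and endocrine cells, had 43 and 17 counts in QT7, 6 and 0 in QT7L1, 28 and 111 in QKO and 78 and 115 in WT. In CPM these were 1.10 and 0.391 in QT7, 0.182 and 0 in QT7L1, 0.869 and 3.08 in QKO and 2.44 and 2.61 in WT. QT7L1 was below every other library, and the QKO libraries differed from each other. The fall in QT7L1 against QKO had a log2 fold change of -4.39 ± 1.01 (adjusted p = 0.0141 by edgeR). This size rests on few counts and moved between -9.20 and -3.20 over the alternatives, and the call ended without QKO replicate 2 or QT7L1 replicate 2 (adjusted p of 0.0802 and 0.0727).

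Zdbf2, a zinc-finger gene read from the paternal copy, had 84.7 and 70.6 CPM in QT7, 109 and 123 CPM in QT7L1, 95.8 and 118 CPM in QKO and 112 and 97.0 CPM in WT. Both QT7 libraries lay below the other 6. QT7 was lower than QKO (log2 -0.46 ± 0.14, adjusted p = 0.0305 by edgeR), which ended without QKO replicate 2, without QT7 replicate 2 and with only the 2 groups fitted (adjusted p of 0.0552 to 0.241). Grb10, an adaptor that restrains insulin receptor signalling, was the most spread of the abundant members. It had 129 and 304 CPM in QT7, 388 and 483 CPM in QT7L1, 234 and 128 CPM in QKO and 229.9 and 209 CPM in WT, above all other libraries in QT7L1, with no call (log2 1.27 ± 0.47 in QT7L1 against QKO, adjusted p = 0.102 by edgeR).

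The remaining single loci gave no call. Impact, a regulator of the GCN2 stress kinase, had 116 and 51.4 CPM in QT7, 58.5 and 50.6 CPM in QT7L1, 54.6 and 84.8 CPM in QKO and 93.6 and 76.9 CPM in WT. Plagl1, a growth-restraining zinc-finger factor, had 129 and 13 counts in QT7, 3 and 3 in QT7L1, 10 and 45 in QKO and 25 and 25 in WT. Peg13, a noncoding RNA inside Trappc9, had 30 and 3 counts in QT7, 0 and 1 in QT7L1, 11 and 6 in QKO and 5 and 7 in WT. For these 3 genes QT7 replicate 1 was the highest library. Inpp5f, an inositol phosphatase, had 26.3 and 24.9 CPM in QT7, 22.2 and 23.1 CPM in QT7L1, 21.4 and 23.7 CPM in QKO and 24.6 and 24.2 CPM in WT, the narrowest range, as a ratio of highest to lowest, of the members tested.

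Levels set per kilobase of exon rank the members against each other. Over the 8 libraries Peg10 averaged 60.1 CPM per kb, Phlda2 57.2, Snrpn 51.7 and Cdkn1c 50.3, the highest of the 38. By group means, Peg10 was first in WT (95.9 CPM per kb), level with Cdkn1c in QKO (64.4 and 64.0) and level with Phlda2 in QT7 (43.5 and 43.4). In QT7L1 (36.4) it stood behind Snrpn (66.7), Phlda2 (60.4), Grb10 (47.9) and Cdkn1c (44.97). The first place of Snrpn there came from replicate 2, at 191 CPM beside 96.6 CPM in replicate 1. In the averages over the 8 libraries Mcts2 followed Cdkn1c with 35.8, Mest with 29.6, Grb10 with 28.9 and Gnas with 19.3 CPM per kb. At the low end of the tested members Kcnq1ot1 averaged 0.0301 CPM per kb over its long unspliced transcript, Peg13 0.0447 and Usp29 0.0694.

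**Figure D3:**
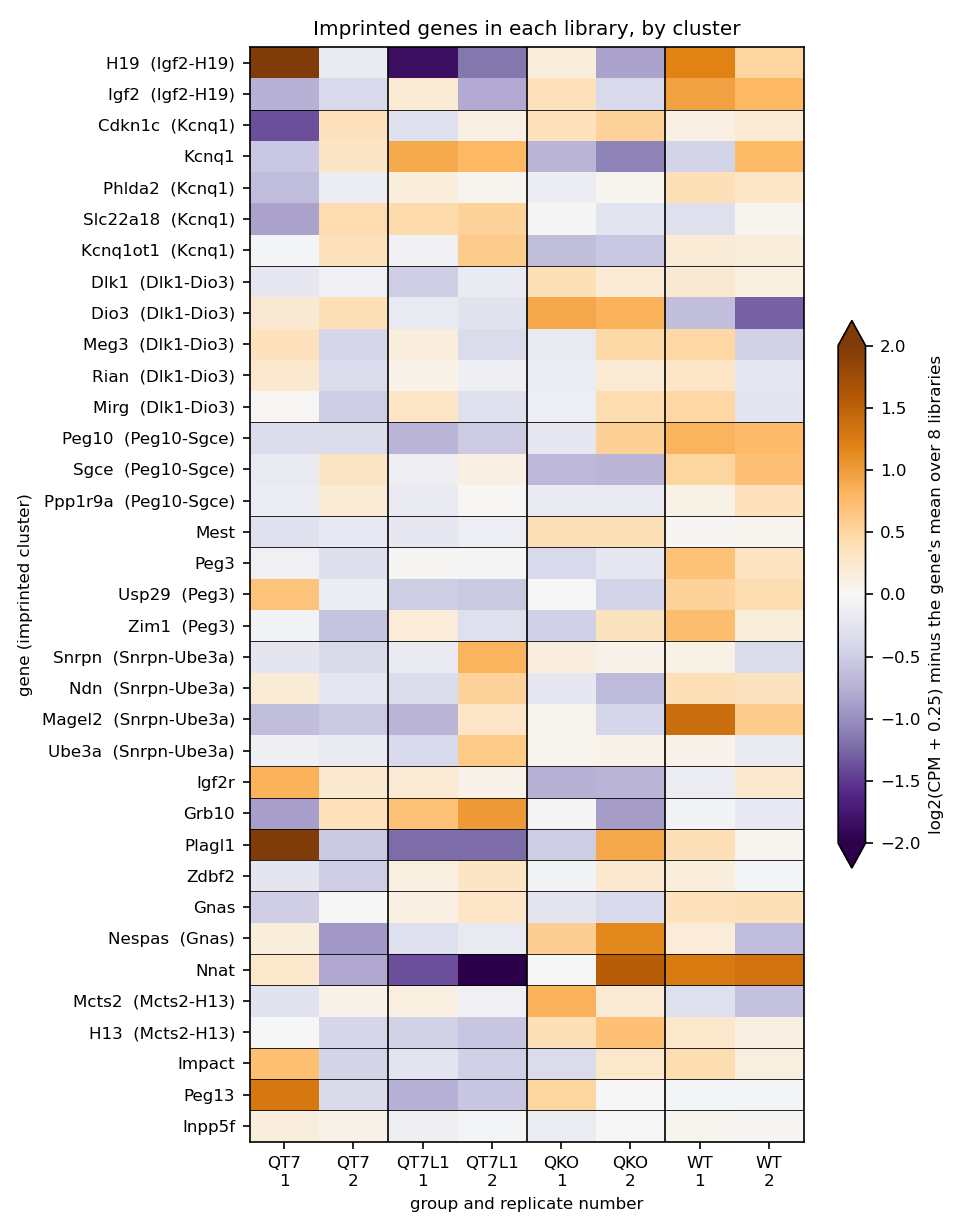
Level of the 35 tested imprinted genes (rows, with their cluster in brackets) in the 8 libraries (columns, group and replicate number), as log2(CPM + 0.25) minus the gene's mean over the libraries; orange is above and purple below the mean. QT7 replicate 1 is darkest for H19, Plagl1 and Peg13 (above) and Cdkn1c (below), and QT7L1 replicate 2 is above replicate 1 for the 4 genes of the Snrpn-Ube3a cluster.

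Clone differences were large beside group differences for some members. Between the 2 QT7 libraries, 9 of 35 members differed at least 2-fold, 3 higher in replicate 2 and 6 lower, where 4.75% of all tested genes did. The count was 2 members in QT7L1 (0.981% of all genes), 3 in QKO (1.62%) and 1 in WT (1.74%). The median size of the log2 ratio of replicate 2 over 1, on log2(CPM + 0.25), was 0.48 for members and 0.23 for all genes in QT7, 0.36 and 0.16 in QKO, 0.19 and 0.16 in QT7L1, and 0.24 and 0.17 in WT. With 1 library per clone these differences have no test. In QT7, H19 was lower in replicate 2 (log2 ratio -2.33), as were Plagl1 (-2.69), Peg13 (-1.67), Impact (-1.17), Nespas (-1.10) and Nnat (-1.07). Cdkn1c (1.75), Slc22a18 (1.28) and Grb10 (1.24) were higher in QT7 replicate 2. These 3 are read from the maternal copy in most tissues, while 5 of the 6 lower ones are read from the paternal copy, H19 being the exception. Of the 35 tested members 20 are paternal and 14 maternal. Plagl1, Peg13, Nespas and Nnat had only 3 to 20 counts in QT7 replicate 2. Maternal members under the 2-fold line went both ways, as Meg3 (-0.78), Igf2r (-0.61), Kcnq1 (0.86) and Phlda2 (0.51) did. The split by parental copy was not tested. In QKO, Plagl1 (1.42) and Nnat (1.57) were higher and H19 (-1.02) lower in replicate 2. QT7L1 differed for Ube3a (1.01) and Igf2 (-1.02), and WT for Kcnq1 (1.22).

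The Snrpn-Ube3a cluster, the mouse counterpart of the Prader-Willi and Angelman region, showed a clone difference that extended over neighbouring genes. Snrpn, which encodes a splicing protein, had 90.5 and 82.8 CPM in QT7, 96.6 and 191 CPM in QT7L1, 119 and 113 CPM in QKO and 116 and 83.6 CPM in WT. Ube3a, the ubiquitin ligase of the region, had 104 and 98.4 CPM in QT7, 83.6 and 169 CPM in QT7L1, 115 and 118 CPM in QKO and 116 and 98.6 CPM in WT. QT7L1 replicate 2 was the highest library for both genes, although they are read from opposite parental copies in neurons, and for Ndn, which encodes necdin. Its level over QT7L1 replicate 1 was 2.02-fold for Ube3a, 1.98-fold for Snrpn and 1.83-fold for Ndn. Magel2, a MAGE-family gene, had 13 and 16 counts in QT7, 10 and 28 in QT7L1, 22 and 15 in QKO and 67 and 49 in WT. It was lower in QT7 than in WT (log2 -2.17 ± 0.53, adjusted p = 0.0478 by edgeR), a call that ended in 10 of 14 alternatives, including without any 1 of the 8 libraries and with the replicate block (adjusted p of 0.0507 to 0.312).

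Among the 31 genes within 6.5 Mb of the Snrpn start that averaged at least 2 CPM, 7 lay between 1 Mb on the Ube3a side and 3.5 Mb on the other. These limits were chosen after the values were seen. All 7 were at least 1.5-fold higher in QT7L1 replicate 2 than in replicate 1, with a median log2 ratio of 0.87, and they include Snhg14 (1.65-fold), Gm38393 (2.48-fold), Mkrn3 (1.81-fold) and Chrna7, a nicotinic receptor gene (1.805-fold), beside the 3 members. None of the other 24 reached 1.5-fold, with a median log2 ratio of 0.10, and Herc2 and Klf13, the nearest widely expressed genes outside, stood at 0.964-fold and 1.10-fold. Atp10a, between Herc2 and Ube3a, was 0.568-fold. The same 7 genes had a median log2 ratio of -0.18 in QT7, 0.03 in QKO and -0.24 in WT. Single genes of the block also differed between the WT libraries: Gm38393 (-1.12), Snhg14 (-0.99) and Snrpn (-0.47) were lower in replicate 2. Ube3a, Ndn, Mkrn3 and Chrna7 lay between -0.24 and 0.03 in WT. The cause of the block of higher counts was not tested, and Snrpn, Ube3a and Ndn were not called in any comparison between groups.

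**Figure D4:**
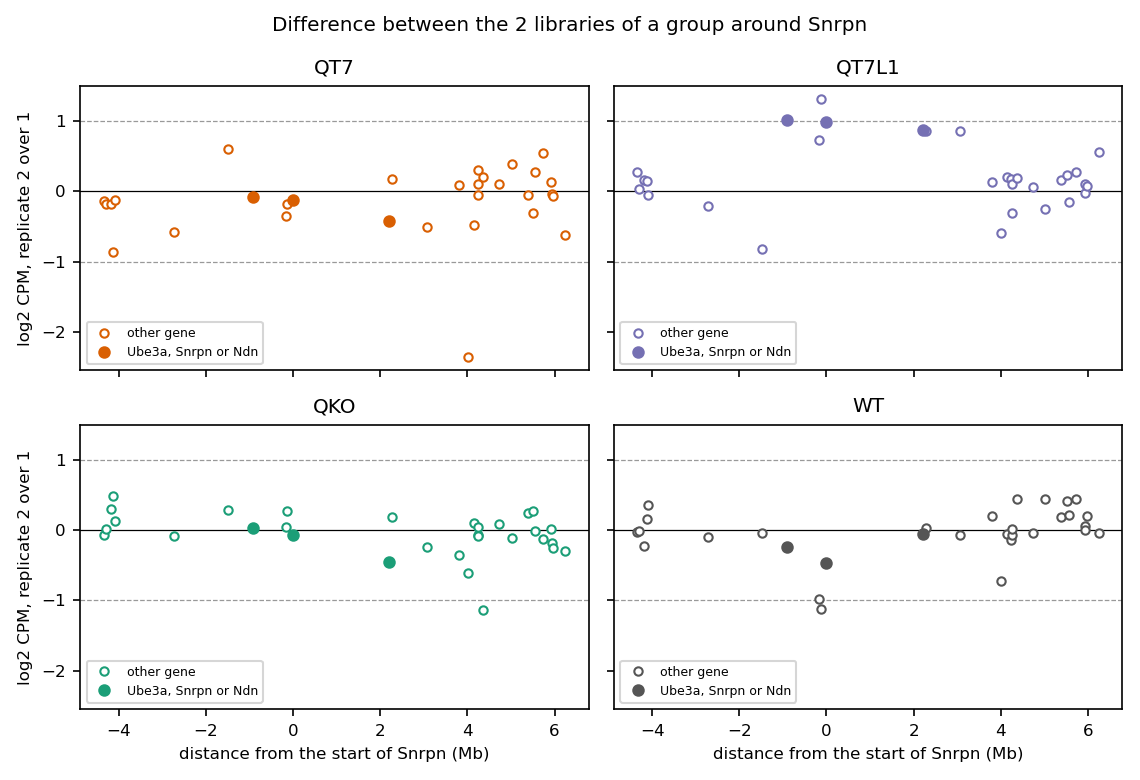
Log2 ratio of CPM in replicate 2 over replicate 1 (y axis) of 31 genes against distance of their start from that of Snrpn in Mb (x axis), 1 panel per group; filled points are Ube3a, Snrpn and Ndn and dashed lines mark 2-fold. In QT7L1 the 7 genes from Ube3a to Chrna7 lie between 0.72 and 1.31, while their median is -0.18 in QT7, 0.03 in QKO and -0.24 in WT. Gm38393 and Snhg14 lie at -1.12 and -0.99 in WT.

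Of 49 further imprinted genes outside the 38, 40 were tested, and 6 rose and 8 fell in QKO against WT, beside 11.7% and 14.7% of all tested genes. Atp10a, a phospholipid flippase gene beside Ube3a, fell most surely, with 3.01 and 4.69 CPM in QT7, 10.9 and 6.09 CPM in QT7L1, 3.29 and 4.05 CPM in QKO and 20.3 and 19.6 CPM in WT. It fell in QKO against WT (log2 -2.44 ± 0.31, adjusted p = 0.00116), was lower in QT7 against WT (log2 -2.37 ± 0.30, adjusted p = 0.00491) and rose in QT7L1 against QKO (log2 1.21 ± 0.30, adjusted p = 0.0154, all by edgeR). Peg12 (log2 -1.86) and Osbpl5 (-1.12) fell in QKO against WT, and Tspan32 (1.66), the chloride channel gene Ano1 (1.88) and Jade1 (0.38) rose. In QT7 against QKO 8 of the 40 rose and 4 fell, beside 14.8% and 12.1% of all genes, and in QT7L1 against QKO 8 rose and 5 fell, beside 15.9% and 13.9%.

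Of 27 genes for keeping imprints and for DNA methylation, all were tested, and 10 rose and 4 fell in QKO against WT, beside 11.7% and 14.7% of all tested genes. Their median log2 fold change was 0.28, against -0.005 for all genes. Trim28, which encodes the corepressor that ZFP57 brings to methylated imprinting control regions, had 1656 and 1746 CPM in QT7, 2019 and 1684 CPM in QT7L1, 3334 and 3338 CPM in QKO and 2015 and 1746 CPM in WT. It rose in QKO against WT (log2 0.83 ± 0.11, adjusted p = 0.00122), and fell in QT7 against QKO (log2 -0.97 ± 0.11, adjusted p = 0.000913) and in QT7L1 against QKO (log2 -0.85 ± 0.11, adjusted p = 0.00107, all by edgeR). Zfp57, whose product binds the TGCCGC core printed above, had 450 and 411 CPM in QT7, 565 and 444 CPM in QT7L1, 641 and 688 CPM in QKO and 415 and 302 CPM in WT. Its rise in QKO had a log2 fold change of 0.89 ± 0.16 (adjusted p = 0.00481 by edgeR). The chromatin remodeller gene Hells (0.80) and the Polycomb gene Eed (0.62) rose as well, while Tet3 (-0.83), Dnmt3b (-0.536), Tet1 (-0.455) and Dppa3 fell.

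Dppa3, which guards methylated imprints in the early embryo, had 1.97 and 0.759 CPM in QT7, 3.48 and 0.914 CPM in QT7L1, 0.683 and 1.14 CPM in QKO and 15.5 and 11.7 CPM in WT (log2 -3.89 ± 0.67 in QKO against WT, adjusted p = 0.00636 by edgeR). The 6 edited libraries lay far below WT. Dnmt1, the maintenance methyltransferase gene, was not called (log2 0.17 in QKO against WT), and its partner Uhrf1 rose (0.48). Dnmt3b, a de novo methyltransferase gene, was the only one of the 27 called lower in both QT7 (log2 -1.04 ± 0.16, adjusted p = 0.0101) and QT7L1 (-1.05 ± 0.16, adjusted p = 0.0251) against WT by edgeR. In QT7 against QKO 10 of the 27 were called, all lower, beside 12.1% of all genes lower, and in QT7L1 against QKO 11, all lower, beside 13.9%. DNA methylation was not analysed here.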

How the data were processed

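RNA-seq libraries were made with a strand-keeping TruSeq mRNA kit from 250 ng RNA each, per the labels' protocols. Per the submitters' processing notes, reads were handled with bcl2fastq 1.8.4, STAR 2.4.0f1, HTSeq and DESeq2 (given there as 2.1.8.3) on mm10, and the authors deposited raw gene counts per library. Whether the counting used strand is not given in the sources used here. For 6 comparisons, tables deposited by the authors hold a log2 fold change and an adjusted p-value per gene, and only their counts of called members are used. The members and gene lists were chosen with earlier results of these data known.

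Counts of 47729 genes were filtered with filterByExpr (16515 kept), scaled by TMM (factors 0.955 to 1.028) and fitted with edgeR 4.0.16 (R 4.3.3, limma 3.58.1) as 4 group means over 8 libraries, which leaves 4 residual degrees of freedom. The quasi-likelihood test was adjusted over all genes tested, with calls at an adjusted p under 0.05. The script was tested on simulated data. CPM used TMM-scaled totals, and errors are the SE of the log2 fold change with n = 2 libraries per group. The labels do not say that clones of a group came from separate cultures on separate days, so p-values measure the spread between these libraries. Exon lengths and gene positions came from GENCODE M21 (GRCm38), where all 38 members were found, and promoter windows from RefSeq GRCm38.p6. Values in all libraries are given for each member called in at least 1 comparison and for the most abundant member of each cluster, and other members by range. Alternatives were RLE size factors, DESeq2 1.42.0, no filter, a filter of 1 CPM in 2 libraries, fits of the 2 compared groups only, a replicate block and leaving out each library. Clone differences are log2 ratios of CPM + 0.25 and have no test.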

Additional observations from a re-analysis of the deposited data

Results flagged for a closer look

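For Phlda2, both QT7 libraries were below the QKO libraries and both QT7L1 libraries above them, although QT7 replicate 2 and QKO replicate 1 differed little (57.27 and 57.28 CPM). Neither group differed from QKO past the threshold (log2 -0.32, adjusted p = 0.148 in QT7 and 0.15, adjusted p = 0.478 in QT7L1, by edgeR). The direct comparison, QT7 against QT7L1, had a log2 fold change of -0.476 and did not pass the threshold (adjusted p = 0.314 by edgeR).

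For Inpp5f, both QT7 libraries were above the WT libraries and both QT7L1 libraries below them, with log2 fold changes of 0.07 and -0.11 that did not pass the threshold (adjusted p = 0.822 and 0.742 by edgeR). The direct comparison had a log2 fold change of 0.174, which did not pass the threshold (adjusted p = 0.621 by edgeR).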

How the results depend on the processing

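Of the 29 calls of 15 members, 7 held under every alternative run, 22 were lost under at least 1 and none reversed. Imprinted genes called, counted in both directions, were 7 in QKO against WT, 5 in QT7 against QKO, 10 in QT7L1 against QKO, 6 in QT7 against WT, 1 in QT7L1 against WT and 0 in QT7 against QT7L1. Without the filter on low counts these became 17, 16, 19, 12, 13 and 11 in the same order, and the cause was not tested. DESeq2 gave 11 in QKO against WT, 5 in QT7L1 against WT and 2 in QT7 against QT7L1. Fitting only the 2 compared groups gave 15 in QKO against WT, 2 in QT7 against WT and 7 in QT7L1 against WT.

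Leaving out 1 library at a time gave 3 to 14 in QKO against WT, 3 to 8 in QT7 against QKO, 3 to 18 in QT7L1 against QKO, 0 to 8 in QT7 against WT, 0 to 4 in QT7L1 against WT and 0 to 10 in QT7 against QT7L1, the 10 without QT7 replicate 2. Without QT7 replicate 1, which stands apart, they were 14, 7, 18, 1, 4 and 0 in the same order. The lone library left in a group is then assumed to vary like the other groups.

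The replicate block gave 9, 5, 10, 6, 1 and 0. Deviations of same-numbered libraries correlated between -0.205 and 0.164. The labels state no pairing, so the numbers were not used to pair libraries in the reported fit. These correlations cannot show that no pairing exists. With the 2 QKO numbers crossed in the block, a choice made after seeing the data, 7 members were called in QT7 against QKO and 13 in QT7L1 against QKO.

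Over all genes, counts moved by more than 1.5 times in every comparison under some setting. Leaving out 1 library gave 1272 to 5497 in QKO against WT (4366 as reported), 1432 to 4355 in QT7 against QKO (4449), 1704 to 5971 in QT7L1 against QKO (4912), 52 to 2023 in QT7 against WT, 0 to 517 in QT7L1 against WT and 0 to 1564 in QT7 against QT7L1, so the members' counts moved beside those of all genes. QT7 against WT had 763 calls as reported, 1300 by DESeq2, 2203 without the filter and 117 with 2 groups only. QT7L1 against WT had 123 calls, 1248 without the filter, 568 by DESeq2 and 614 with 2 groups only, and QT7 against QT7L1 had 1, 1030, 235 and 20 under the same settings. Nnat, Plagl1, Peg13 and Magel2 had 0 to 129 counts per library.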
